A study of Mus musculus with 5 samples.

Results

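Transcripts of 10 chemokines were followed in cultured cardiac fibroblasts (CF) of the mouse by SLAMseq, which reads transcript level and newly made RNA from the same library. The genes were *Ccl2*, *Ccl7*, *Ccl9*, *Ccl11*, *Cxcl1*, *Cxcl5*, *Cxcl12*, *Cxcl14*, *Cxcl16* and *Cx3cl1*, chosen by name out of 20365 gene names in the tables, and all 10 were found. CF came from hearts of healthy adult male C57Bl/6J wildtype mice, taken by collagenase perfusion, and were cultured to confluency. In 3 libraries (labeled), CF had been given 0.1 mM S4U (4-thiouridine, a nucleoside that is built into RNA in place of uridine) for 12 h, and in 2 libraries (unlabeled) CF had been kept for the same 12 h without S4U. RNA of both groups was alkylated. The study's methods give 3 CF preparations for SLAMseq, with wells pooled per sample, but the labels do not tie a library to a preparation, so p-values measure the spread between libraries.

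Chemokines are small secreted proteins that guide leukocytes through G protein-coupled receptors. Inflammatory chemokines are made on demand after cytokine or damage signals, and their mRNAs often carry AU-rich elements in the 3′ UTR, through which RNA-binding proteins shorten their lifetime. Constitutive (homeostatic) chemokines are made steadily and keep cells in place. In the heart, fibroblasts are known as a source of CCL2 and of the CXCR2 ligands that recruit monocytes and neutrophils, and of CXCL12. Here *Ccl2*, *Ccl7*, *Cxcl1* and *Cxcl5* were taken as the 4 inflammatory genes and *Cxcl12* and *Cxcl14* as the 2 constitutive ones. The other 4 (*Ccl9*, *Ccl11*, *Cxcl16*, *Cx3cl1*) were placed in neither class.

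The sequences shown are the stretches of 30 bases around the densest AU-rich pentamer in the counted intervals of the genes on which the comparison of newly made RNA turns. They were read from GRCm39 on the strand of the gene, 5′ to 3′, with each ATTTA in capitals (overlapping copies run together). *Ccl2* and *Ccl7* had the highest rates of T>C conversion, the mark of new RNA defined below. *Cxcl1* and *Cx3cl1* hold the longer motif TTATTTATT, and *Cxcl12* has different last exons with different conversion rates. The windows lie, in the same order, at chr11:81928031-81928060 (plus strand), chr11:81938080-81938109 (plus), chr5:91040465-91040494 (plus), chr8:95507477-95507506 (plus), chr6:117151985-117152014 (plus, proximal last exon) and chr6:117157363-117157392 (plus, distal last exon).
Ccl2: taatattaaacttATTTAacttattgatgt
Ccl7: tattaatatttttATTTAattagccatgta
Cxcl1: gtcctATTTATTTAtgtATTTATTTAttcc
Cx3cl1: ccagtgaacaattATTTAttggattcccag
Cxcl12 proximal: cgtatgtgggaATTTATTTAcctgaaataa
Cxcl12 distal: atccgaATTTAaataggacATTTAcatcgg

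ATTTA was present in the intervals of 9 of the 10 genes, the exception being *Cxcl16*. Only the strand of the gene was searched, and overlapping copies were counted. Of all 20329 genes with an interval on a reference chromosome, 60.4% held ATTTA and 6.79% held TTATTTATT, and of all intervals of any length 55.9% and 6.17% did. *Cxcl1* held 7 copies of ATTTA in 598 bases, or 11.7 per 1000 bases. Over 1 interval for each of the 20329 genes, the density was 1.85 per 1000 bases with copies and lengths summed. The median of the genes was 1.02. *Ccl11* held 5 copies (7.76 per 1000 bases), *Ccl7* 2 (4.60), *Cxcl5* 5 (4.50), *Ccl2* 1 (3.65), *Cxcl12* 4 in its proximal interval (2.69) and *Ccl9* 5 (2.03). *Cx3cl1* and *Cxcl14* held 1 copy each, at 0.534 and 0.529 per 1000 bases. TTATTTATT occurred 2 times in *Cxcl1* and 1 time in *Cx3cl1*, and in no interval used for the other 8 genes.

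Reads of these libraries come from the 3′ end of the mRNA, 1 read per captured end, so levels were compared between genes without division by length. Between 506045 (labeled replicate 3) and 1842863 (unlabeled replicate 1) reads were counted on 1 interval per gene. The deposited CPM divides by another number of reads, 7.58 to 28.9 times the counted reads depending on the library. Levels are therefore given as CPM relative to counted reads. Fibroblast genes dominated in every library: the summed level of 10 fibroblast markers (*Col1a1*, *Dcn*, *Pdgfra*, *Tcf21* and others) was 33898 to 45010 CPM. Summed levels of 12 macrophage and leukocyte markers were 123 to 198 CPM, of 7 endothelial markers 115 to 237, of 5 mural markers 7.53 to 15.8, of 4 mesothelial markers 0.543 to 5.93 and of 6 cardiomyocyte markers 1.90 to 8.03. *Myh6* had 1 read in all libraries together. In such bulk samples, fewer cells of a type and less RNA per cell cannot be told apart.

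*Cxcl12* was the most abundant chemokine and *Ccl11* was close to undetected. In order of mean level in the labeled libraries, *Cxcl12* had 904 ± 93.7 CPM (SD, n = 3, as for all means here), *Cxcl5* 518 ± 67.2, *Ccl2* 389 ± 153 and *Ccl7* 190 ± 48.4. *Cxcl14* had 140 ± 17.7 CPM, *Ccl9* 75.7 ± 46.2, *Cxcl16* 73.1 ± 33.7, *Cx3cl1* 66.7 ± 2.55, *Cxcl1* 43.8 ± 0.531 and *Ccl11* 2.41 ± 0.813. The *Cxcl1* level rests on 22 to 70 reads per labeled library, so its small SD is no measure of its counting error. The labeled libraries of neighbours in this order overlapped for *Cxcl5* and *Ccl2*, *Ccl7* and *Cxcl14*, *Ccl9* and *Cxcl16*, and *Cxcl16* and *Cx3cl1*, and did not overlap for the other 5 pairs of neighbours. Both classes thus held genes at high and at lower levels.

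**Figure D1:**
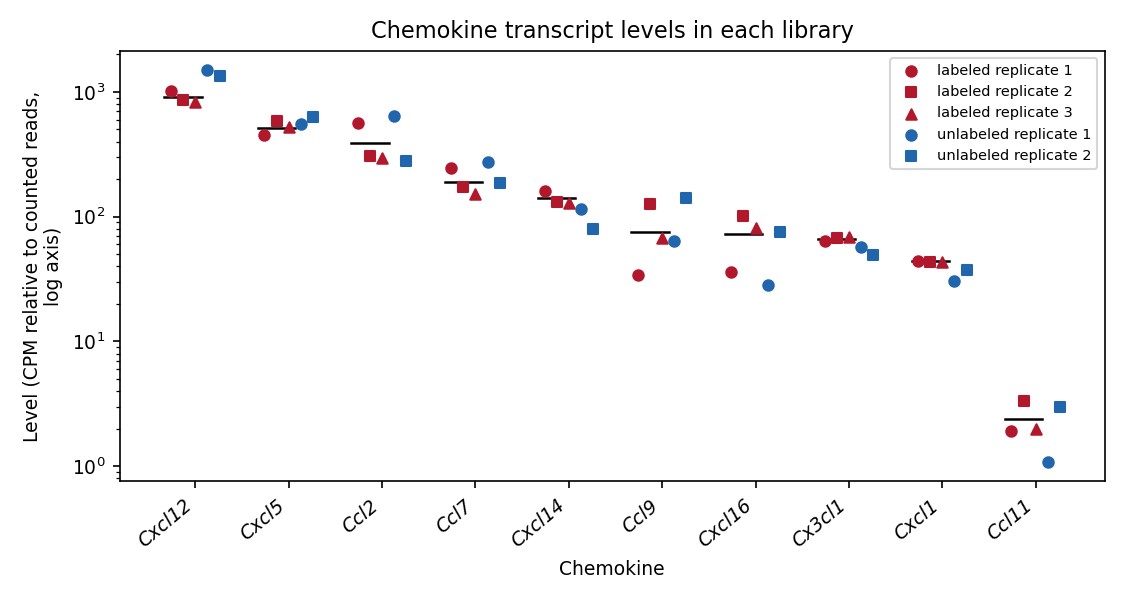
Level of each chemokine in each library (y axis, CPM relative to counted reads, log axis), ordered by the mean of the 3 labeled libraries, which is drawn as a bar. *Cxcl12* lies lower in the labeled (834 to 1010 CPM) than in the unlabeled libraries (1348 and 1489 CPM), and *Ccl2* lies highest in replicate 1 of each group (565 and 641 CPM).

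Most chemokine transcripts carried new RNA. The T>C conversion rate is the fraction of covered T positions read as C. The larger the part of a transcript pool that was made within the labeling time, the higher this rate. It was 0.0353 to 0.0358 over all intervals in the labeled libraries and 0.000652 to 0.00111 in the unlabeled ones. For 9 of the 10 chemokines the rate was higher in every labeled than in both unlabeled libraries, which held for 89.2% of all 19240 intervals tested. The same 9 passed a two-sided beta-binomial likelihood-ratio test at an unadjusted threshold of 0.05, as did 94.6% of all intervals, so the count is close to the background. *Ccl11* did not pass. A one-sided p for a higher rate, added after seeing the data, called all 10 and 96.3% of all intervals.

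Among the 10 genes, the monocyte attractants *Ccl2* and *Ccl7* had the highest rates. *Ccl2* (ENSMUSG00000035385.6), a ligand of CCR2, was counted in the 3′ UTR of its last exon (exon 3 of 3) at chr11:81928005-81928278. Its rate was 0.0496, 0.0533 and 0.0542 in labeled replicates 1, 2 and 3, from 25122, 10591 and 4412 covered T, against 0.00106 in both unlabeled libraries. No unlabeled library came near a labeled one (beta-binomial test, p = 1.64e-08). Of the *Ccl2* reads in the labeled libraries, 74.7 ± 2.74% carried at least 1 conversion, against at most 3.13% in an unlabeled library.

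*Ccl7* (ENSMUSG00000035373.4), another CCR2 ligand, is the next gene on the same strand, 8252 bases downstream of *Ccl2* with no protein-coding gene between, and was counted in exon 3 of 3 at chr11:81937917-81938351. Its rate was 0.0441, 0.05004 and 0.0483 in the labeled and 0.000353 and 0.000202 in the unlabeled libraries (beta-binomial test, p = 1.78e-07). In each labeled library *Ccl2* had the higher rate of the pair, by 0.00489 ± 0.00138, although the ranges of both genes overlapped. On the intervals used, the rates of both genes lay above those of the other 8 genes in each labeled library. The highest rate of those 8 in any labeled library was 0.0392. Among 2105 genes covered at 1000 or more T in every library, the median rate was 0.0388 and the quartiles were 0.0343 and 0.0423. The mean rate of *Ccl2* was higher than that of 99.7% of these genes and that of *Ccl7* higher than that of 96.3%.

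The neutrophil attractants *Cxcl1* and *Cxcl5*, both CXCR2 ligands, had rates below this median. *Cxcl1* (ENSMUSG00000029380.13; exon 4 of 4, chr5:91040383-91040980, 598 bases of which 592 lie in the exon) had 0.0359, 0.0374 and 0.0372 in the labeled libraries. Unlabeled replicates 1 and 2 had 0.00734 and 0.00110, from 6 conversions in 817 covered T and 1 in 908. The labeled libraries, with 37, 47 and 21 conversions, lay close together and the unlabeled ones apart (beta-binomial test, p = 1.42e-04). Counting error exceeded the spread of the labeled rates. Their 95% exact binomial intervals were 0.0254 to 0.0491, 0.0276 to 0.0494 and 0.0232 to 0.0563. *Cxcl5* (ENSMUSG00000029371.9; exon 4 of 4, chr5:90908373-90909484) had 0.0302, 0.0376 and 0.0347, against 0.000220 and 0.000405 (beta-binomial test, p = 1.28e-06). The mean rates were 0.0368 ± 0.000831 for *Cxcl1* and 0.0341 ± 0.00373 for *Cxcl5*, and their ranges overlapped.

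The constitutive chemokines had lower mean rates on the intervals used, although *Cxcl14* was slightly above *Cxcl5* in labeled replicate 1 (0.0303 against 0.0302). *Cxcl12* (ENSMUSG00000061353.13), the ligand of CXCR4 that holds stem cells and leukocytes in their niches, was counted on its most abundant, proximal interval, in the last exon (exon 3 of 3 of Cxcl12-202) at chr6:117150544-117152030. Its rate there was 0.0280, 0.0314 and 0.0264 in the labeled and 0.00252 and 0.00101 in the unlabeled libraries (beta-binomial test, p = 4.70e-06). *Cxcl14* (ENSMUSG00000021508.13), a chemokine of skin and stroma without a settled receptor, was counted in the last exon on the minus strand at chr13:56436456-56438345, which also covers 113 bases that are coding in some transcript. It had 0.0303, 0.0268 and 0.0337 in the labeled libraries, 0.00103 in unlabeled replicate 1 and 0 of 1506 covered T in unlabeled replicate 2, which allows a rate of up to 0.00199 (beta-binomial test, p = 5.48e-06). The 2 genes overlapped in rate.

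Averaged over the genes of each class, the rate was higher for inflammatory than for constitutive chemokines in each labeled library. The class means were 0.0399 and 0.0292 in labeled replicate 1, 0.0446 and 0.0291 in replicate 2, and 0.0436 and 0.0301 in replicate 3. The difference was 0.0132 ± 0.00238, and the ratio of the means was 1.45. In the unlabeled libraries the differences were 0.000466 and 0.000187. The classes were set by name and hold 4 and 2 genes that share libraries, so no test was run. With *Ccl11*, *Cx3cl1* and *Cxcl16* counted as inflammatory, the difference was 0.00507. Each gene weighs the same in a class mean, so *Ccl11* counted as much as *Ccl2* although it had only 4 to 89 covered T per labeled library. Most of the difference between the classes as named came from *Ccl2* and *Ccl7*: *Cxcl1* and *Cxcl5* alone exceeded the constitutive genes by 0.00384, 0.00838 and 0.00583. The difference also depended on the last exon read for *Cxcl12*, and with the distal one it was 0.00361, 0.0107 and 0.00694. Both of these last comparisons, chosen after seeing the data, stayed above 0 in the 3 libraries. They were made separately and not together. On its distal last exon, *Cxcl12* had higher rates than *Cxcl1* and *Cxcl5* in each labeled library, as given below.

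**Figure D2:**
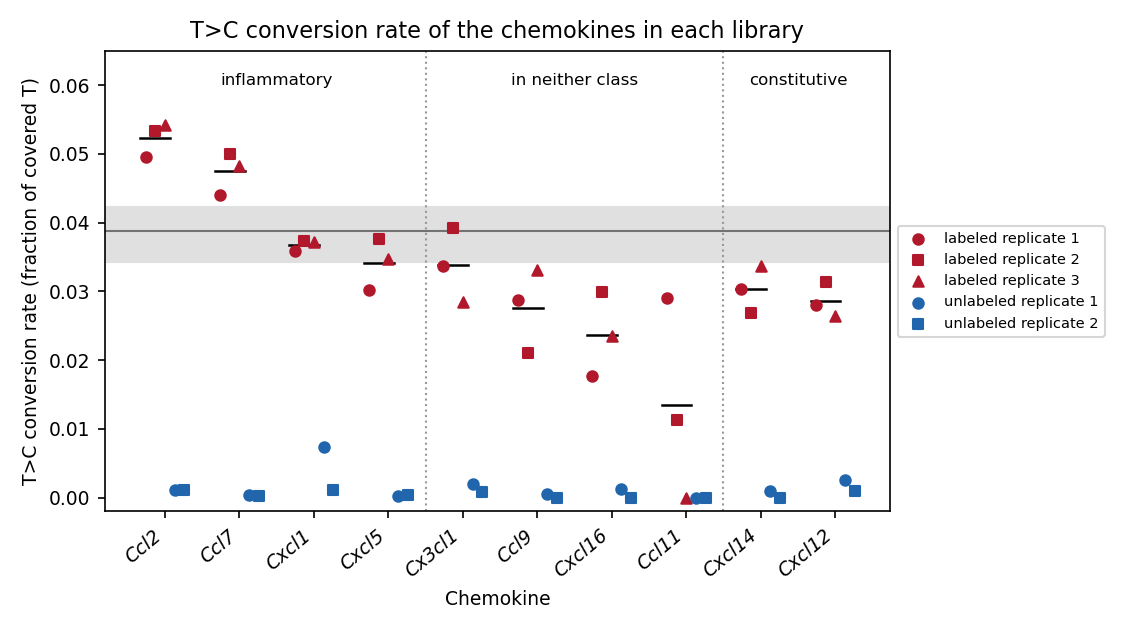
T>C conversion rate of each chemokine in each library (y axis, fraction of covered T), grouped by class, with a bar at the mean of the 3 labeled libraries. The grey line and band are the median and quartiles of 2105 deeply covered genes (0.0388, 0.0343 to 0.0423). *Ccl2* and *Ccl7* lie above the band in all labeled libraries, whereas *Cxcl12* (proximal interval) and *Cxcl14* lie below it.

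Of the chemokines in neither class, the membrane-bound *Cx3cl1* (fractalkine, ligand of CX3CR1) had the highest mean rate, although *Ccl9* was above it in labeled replicate 3. *Cx3cl1* (ENSMUSG00000031778.15; exon 3 of 3, chr8:95507185-95509055, of which 257 bases are coding in some transcript) had 0.0337, 0.0392 and 0.0285 in the labeled and 0.00199 and 0.000766 in the unlabeled libraries (beta-binomial test, p = 1.02e-05). *Ccl9* (ENSMUSG00000019122.10; exon 4 of 4, minus strand, chr11:83463743-83466209), a CCR1 ligand of myeloid cells, had 0.0287, 0.0210 and 0.0331, against 0.000499 and 0 of 2738 covered T, which allows up to 0.00110 (beta-binomial test, p = 5.50e-05). *Cxcl16* (ENSMUSG00000018920.13), the other membrane-bound chemokine and a ligand of CXCR6, had 0.0177, 0.0300 and 0.0235, against 0.00129 and 0 of 1337, which allows up to 0.00224 (beta-binomial test, p = 2.16e-04). The labeled libraries of these genes spread more than those of *Ccl2*, with SDs of 0.00537, 0.00611 and 0.00615, and the fewest covered T in a labeled library were 1017, 605 and 765. The *Cxcl16* interval, chr11:70346015-70346229 on the minus strand, is 215 bases long and lies in exon 5 of 5 of Cxcl16-201, while the annotated gene reaches to position 70344517, so ends used further downstream were not counted.

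*Ccl11* (eotaxin, ligand of CCR3; ENSMUSG00000020676.4) lies 10266 bases downstream of *Ccl7* and was counted at chr11:81953138-81953781. It had 3, 4 and 1 reads in the labeled and 2 and 3 in the unlabeled libraries. Its conversions were 2 of 69, 1 of 89 and 0 of 4 covered T in the labeled libraries, and 0 of 53 and 0 of 71 in the unlabeled ones. The beta-binomial test gave p = 0.0638 (two-sided; one-sided beta-binomial p = 0.0319), and limma on the log odds called it higher (adjusted p = 0.0251). With so few reads the rate is known poorly, and 0 of 53 covered T allows up to 0.0566. All intervals and limits given here cover counting error only.

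In the order of mean rates, *Ccl2* (0.0524 ± 0.00246) and *Ccl7* (0.0475 ± 0.00306) were followed by *Cxcl1*, *Cxcl5*, *Cx3cl1* (0.0338 ± 0.00537), *Cxcl14* (0.0303 ± 0.00346), *Cxcl12* (0.0286 ± 0.00253), *Ccl9* (0.0276 ± 0.00611), *Cxcl16* (0.0237 ± 0.00615) and *Ccl11* (0.0134 ± 0.0146). *Ccl7* and *Cxcl1* were the only neighbours whose labeled libraries did not overlap. The 95% exact binomial intervals of *Cxcl1*, given above, reached into the range of *Ccl7* (0.0441 to 0.05004) in each labeled library. Level and rate did not share an order, since *Cxcl12* was at rank 1 by level and rank 7 by rate, and *Cxcl1* at rank 9 by level and rank 3 by rate. These ranks are of uncorrected rates on the intervals used. With the unlabeled rate subtracted, *Cxcl1* (0.0326) came below *Cxcl5* (0.0338), and *Cxcl12* (0.0268) below *Ccl9* (0.0273).

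The reads of *Cxcl12* were split over last exons in different proportions in labeled and unlabeled libraries. Apart from the proximal interval, *Cxcl12* had a distal one in exon 4 of 4 of Cxcl12-201, at chr6:117153141-117158329, of which 32 bases are coding in some transcript. The distal interval took 376 of 1968 reads, or 19.1%, in labeled replicate 1 (95% exact binomial interval 17.4 to 20.9%), 26.0% of 1400 in replicate 2 (23.7 to 28.4%) and 30.1% of 604 in replicate 3 (26.5 to 34.0%). It took 11.4% of 3097 reads in unlabeled replicate 1 (10.3 to 12.6%) and 13.2% of 1548 in replicate 2 (11.6 to 15.0%). Every labeled library had a larger distal share than both unlabeled ones, a comparison not made for other genes. The group means were 25.1 ± 5.57% (SD, n = 3) and 12.3 ± 1.30% (SD, n = 2), and the exact permutation test gave p = 0.2 (two-sided), the smallest value that 3 against 2 libraries can give.

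Proximal and distal *Cxcl12* differed in opposite directions between the groups. The proximal level was 1010, 867 and 834 CPM in the labeled and 1489 and 1348 CPM in the unlabeled libraries. The distal level was 239, 305 and 360 CPM, against 192 and 206 CPM. Neither pair of ranges overlapped, and levels did not overlap for 21.3% of all genes tested. The distal interval also had higher rates, 0.0423, 0.0411 and 0.0395 in the labeled libraries, with 0.00172 and 0.000193 in the unlabeled ones. Each of these labeled rates was above those of *Cxcl1* and *Cxcl5* in the same library. In each labeled library the distal rate exceeded the proximal one, by 0.0123 ± 0.00239 on average (1.43 times as high), whereas it was lower in both unlabeled libraries. These values were looked at after *Cxcl12* was seen to have several intervals, and the intervals differ in base composition, which the rate does not correct for.

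**Figure D3:**
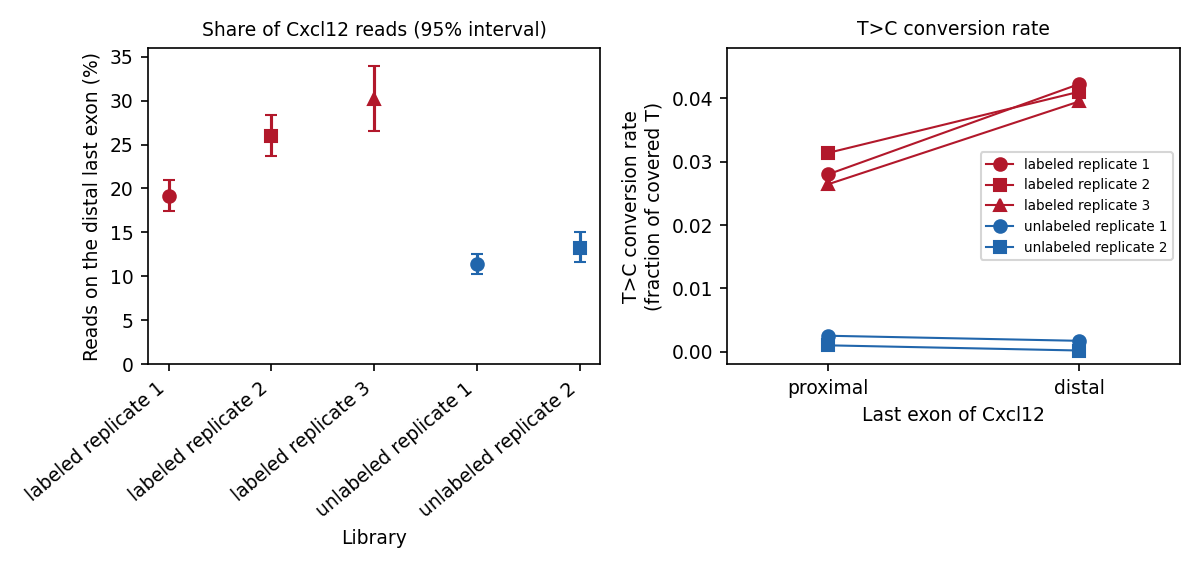
*Cxcl12* on its proximal and distal last exons. The left panel gives the share of reads on the distal exon in each library (y axis, %, with 95% exact binomial intervals), 19.1 to 30.1% in labeled and 11.4 to 13.2% in unlabeled libraries, and the right panel gives the T>C conversion rate (y axis, fraction of covered T) on each exon, which is higher on the distal exon in all 3 labeled libraries.

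Whether S4U changed the amount of chemokine transcripts was asked by comparing reads between the groups. In the main fit, which does not use replicate numbers, no chemokine passed edgeR's quasi-likelihood test at an adjusted p of 0.05. Neither did any of the 9807 genes tested (0.00%). At an unadjusted p below 0.05, 585 genes (5.97%) and 1 of the 9 chemokines tested, *Cxcl12*, were called, and DESeq2 called 10 genes higher and 4 lower at its adjusted threshold, none of them a chemokine. *Ccl11* did not pass the filter on low counts and was not tested by edgeR, and DESeq2, which tested it, gave a log2 fold change of 0.37 (SE 1.48). The median log2 fold change of the 9, labeled over unlabeled, was −0.11, against 0.02 over all genes tested. The levels of 4 of the 9 did not overlap between the groups, as for 21.3% of all genes tested. A fit with the replicate block, given with its limits under the processing, called *Cxcl12* and *Cxcl14* among 528 genes higher and 617 lower.

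Of the 5 chemokines with a negative fold change, *Cxcl12* on its proximal interval was the 1 whose levels, given above, did not overlap between the groups, with a log2 fold change of −0.57 (SE 0.22, edgeR adjusted p = 0.799). With the reads of the proximal and the distal interval added, each counted once, it was −0.35 (SE 0.22, adjusted p = 0.974), a sum made after seeing the data. *Cxcl14* was at 161, 131 and 128 CPM in the labeled and 116 and 79.3 CPM in the unlabeled libraries. All labeled libraries were above both unlabeled ones, with a log2 fold change of 0.60 (SE 0.27, adjusted p = 0.864). The levels of *Cxcl1* were 44.4, 43.5 and 43.5 CPM against 30.4 and 37.1 CPM (0.45, SE 0.30), and those of *Cx3cl1* 64.1, 66.9 and 69.2 CPM against 57.5 and 49.2 CPM (0.40, SE 0.26). Neither gene overlapped between groups and neither passed the test. The levels of *Cxcl1* rest on 70, 52 and 22 reads against 56 and 37. Those of *Cx3cl1* rest on 101, 80 and 35 reads against 106 and 49.

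The remaining chemokines overlapped between labeled and unlabeled libraries and lay in the same order in replicates 1 and 2 of both groups. *Ccl2* was at 565, 307 and 294 CPM in labeled replicates 1, 2 and 3 and at 641 and 278 CPM in unlabeled replicates 1 and 2 (log2 fold change −0.15, SE 0.42). *Ccl7* was at 244, 172 and 152 CPM against 276 and 187 CPM (−0.20, SE 0.29). Both neighbours were highest in replicate 1 of either group. *Ccl9* was at 34.3, 126 and 67.2 CPM against 63.5 and 142 CPM (−0.37, SE 0.59), and *Cxcl16* at 36.2, 102 and 81.0 CPM against 28.2 and 75.3 CPM (0.57, SE 0.59). Both were higher in replicate 2 than in replicate 1 of either group. *Cxcl5* was at 450, 585 and 520 CPM against 552 and 627 CPM (−0.11, SE 0.25).

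**Figure D4:**
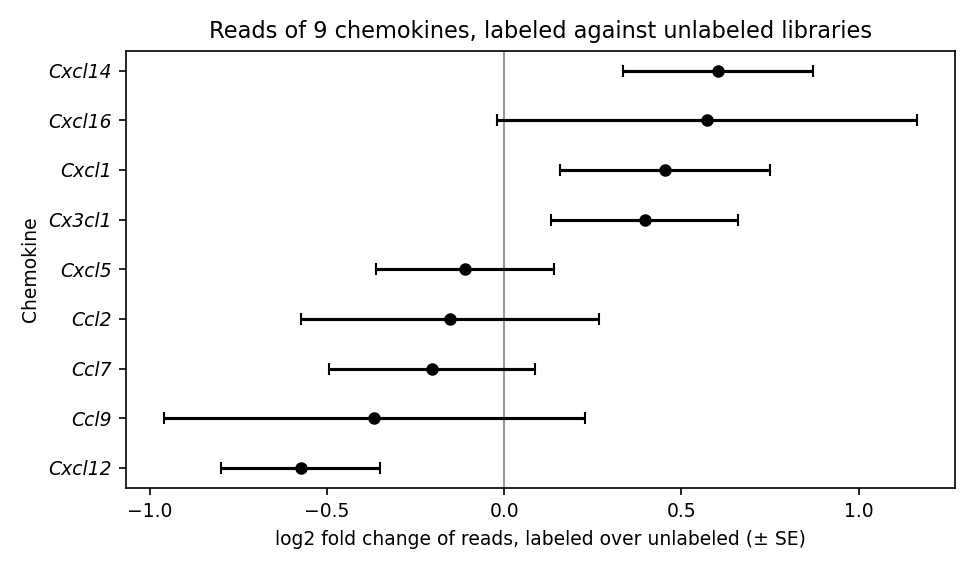
log2 fold change of reads, labeled over unlabeled (x axis), with its SE from edgeR, for the 9 chemokines tested (y axis). The values run from −0.57 for *Cxcl12* to 0.60 for *Cxcl14*, and in this fit, without the replicate block, none passed at an adjusted p of 0.05.

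Levels of markers of other cells also differed between the libraries, not all in the same order. The 12 macrophage and leukocyte markers summed to 129, 171 and 123 CPM in labeled replicates 1 to 3 and to 148 and 198 CPM in the unlabeled ones, and 11 of the 12 had reads in every labeled library. Singly, 5 of the 12 were higher in replicate 2 than in replicate 1 of both groups, 3 (*Itgam*, *Mrc1* and *Fcgr1*) were higher in replicate 1 of both, and 4 differed in order between the groups. *Lyz2*, a lysozyme of myeloid cells, was at 2.54, 27.6 and 17.8 CPM against 3.26 and 30.1 CPM, and *Itgam*, an integrin of myeloid cells, went the other way at 12.7, 3.35 and 5.93 CPM against 17.9 and 11.04 CPM. *Ptprc*, which encodes the leukocyte antigen CD45, was at 0.634, 3.35 and 0 CPM against 2.71 and 3.01 CPM. The 7 endothelial markers summed to 115, 218 and 121 CPM, against 162 and 237 CPM. Both sums were higher in replicate 2 than in replicate 1 of either group, as were *Ccl9*, *Cxcl16* and *Cxcl5*. This order was not particular to markers of other cells. The fibroblast marker *Thy1* shared it, at 202, 331 and 213 CPM against 151 and 322 CPM. The fibroblast markers *Vim* and *Tcf21* were higher in replicate 1 of both groups. In the study's isolation of CF, described for operated hearts, magnetic beads took out CD31+ endothelial and CD45+ immune cells before plating. The part of such cells in the levels of *Ccl9* and *Cxcl16* was not tested.

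The other chemokine ligands stayed at low levels. Of 28 listed, 26 were in the tables, 12 had reads in every labeled library and 8 had none in any library. The highest were *Ccl6* at 40.6 ± 13.5 CPM, *Ccl8*, a further monocyte attractant of the *Ccl2* locus, at 35.4 ± 7.38, *Pf4*, which platelets and macrophages store, at 32.5 ± 9.51, *Ccl17* at 12.2 ± 6.17 and *Ccl25* at 11.8 ± 7.90. Each of these means was below that of *Cxcl1*, although *Ccl6* was above it in labeled replicate 2 (53.6 against 43.5 CPM). *Ppbp* and *Cxcl15*, which lie between *Cxcl5* and *Cxcl1* with *Pf4* and *Cxcl3*, had no reads. Of 10 that could be tested, 8 had a higher rate in labeled libraries, against 94.6% of all intervals. The mean labeled rates of 5 of the listed ligands (*Ccl3*, *Ccl27a*, *Ccl4*, *Ccl25* and *Ccl20*), 0.0482 to 0.0999, were above that of *Ccl7*, from 9 to 383 covered T and 1 to 33 reads per labeled library. None of 6 passed edgeR's adjusted threshold for reads, and 1, *Ccl17*, had an unadjusted p below 0.05, as did 5.97% of all genes (log2 fold change 2.28, SE 0.74, adjusted p = 0.724).

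Receptors for these ligands were close to absent. Of 18 chemokine receptors, 2 had reads in every labeled library and 11 had none in any library. *Cx3cr1*, the receptor of *Cx3cl1* and a macrophage gene, was at 14.1 ± 1.63 CPM and *Cxcr4*, the receptor of *Cxcl12*, at 6.53 ± 0.544. *Ccr2*, the receptor of *Ccl2* and *Ccl7*, had 1 read in labeled replicate 3 and 0 in the other libraries, and *Cxcr2*, the receptor of *Cxcl1* and *Cxcl5*, had 0 in all 5. A count of 0 allows up to 3 reads in a library. *Cx3cr1* was at 12.7, 15.9 and 13.8 CPM in the labeled and 5.43 and 2.01 CPM in the unlabeled libraries, which did not overlap (log2 fold change 1.89, SE 0.55, edgeR adjusted p = 0.665). Its unadjusted edgeR p was 0.0110, and 5.97% of all genes were below 0.05. *Cxcr4* also did not overlap and lay the other way, at 6.98, 6.69 and 5.93 CPM against 13.02 and 11.04 CPM (−0.79, SE 0.45, adjusted p = 0.956). Reads were few, 20, 19 and 7 against 10 and 2 for *Cx3cr1* and 11, 8 and 3 against 24 and 11 for *Cxcr4*. Levels did not overlap for 21.3% of all genes tested. Of 5 atypical receptors, which take up chemokines without signaling through G proteins, *Ackr3*, the scavenger of CXCL12, was at 9.76 ± 3.43 CPM (10.8, 12.6 and 5.93 CPM in the labeled and 21.7 and 13.1 CPM in the unlabeled libraries, log2 fold change −0.70, SE 0.46), and *Ccrl2* and *Ackr4* were near 2 CPM. *Ackr4* was the 1 of 2 tested with an unadjusted p below 0.05, as for 5.97% of all genes (log2 fold change −2.07, SE 0.59, adjusted p = 0.627).

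Transcripts of enzymes that shed or trim chemokines and of proteins that act on their mRNA were present. *Adam17* and *Adam10*, whose products release CX3CL1 and CXCL16 from the membrane, were at 228 ± 44.1 and 152 ± 47.9 CPM. The matrix metalloproteinases *Mmp3*, *Mmp14* and *Mmp2* were at 1212 ± 167, 741 ± 309 and 265 ± 140 CPM. Of the 10 enzymes listed, 7 had reads in every labeled library, and 6 of 7 tested had a higher T>C conversion rate in labeled libraries (94.6% of all intervals). None of 6 passed edgeR's adjusted threshold for reads, and *Adam17* alone had an unadjusted p below 0.05, as did 5.97% of all genes (log2 fold change −0.61, SE 0.25, adjusted p = 0.810). All 11 RNA-binding proteins listed for AU-rich or stem-loop elements had reads in every labeled library and a higher T>C conversion rate there, which is close to the 94.6% of all intervals. The highest were *Zfp36l1*, of the tristetraprolin family that removes AU-rich mRNA, at 442 ± 32.6 CPM, *Rc3h2* (143 ± 35.1), *Hnrnpd* (72.8 ± 9.86), *Elavl1* (72.6 ± 16.3) and *Rc3h1* (69.8 ± 5.24). None of the 11 had an edgeR p below 0.05, adjusted or not.

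For genes on both strands at one place, reads may be shared. The interval of *Cxcl16* overlaps an exon of *Med11*, that of *Cx3cl1* an exon of 1700121C10Rik, and that of *Cxcl5* the gene Gm72413 outside its exons, each on the opposite strand. The library kit keeps the strand, and whether the counting used it is not given in the sources used here.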

How the data were processed

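SLAMseq libraries of CF were analysed, 3 labeled and 2 unlabeled, grouped by the submitters' labels. The authors extracted molecular identifiers and removed duplicates with UMI-tools, mapped reads to mm39 with SLAM-DUNK 0.4.3 and deposited, per 3′ UTR interval, unnormalized counts (reads, reads with T>C, covered T, conversions). The deposited conversion rate is a fraction, conversions over covered T, and the deposited CPM divides reads by 1 number per library. Base composition, sequence context and S4U uptake were not corrected for. Each table has 97442 rows, of which 40428 distinct intervals were used once, and a gene was read on its interval with the highest mean deposited CPM in the labeled libraries. Coordinates are 1-based in GRCm39. The T content of 40380 of 40380 intervals on its chromosomes equalled that of the reference.

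The members and gene lists were chosen with earlier results of these data known. All 10 members were named, and from each list up to 5 genes with reads in every labeled library, by level. Other list genes were named after their values were seen. For T>C rates, the groups were compared by a likelihood-ratio test of a beta-binomial model (1 shared overdispersion, chi-square with 1 degree of freedom, two-sided, unadjusted, fitted here and not the bb.test function of the study), which with 5 libraries is approximate, and reads with edgeR's quasi-likelihood test (TMM, filterByExpr, Benjamini-Hochberg adjustment). Both were also run on simulated data, but no error rate from these runs is given here. Libraries of a group differed beyond counting noise (chi-square per degree of freedom 2.04 to 16.6). Each library was counted as a replicate, although this spread does not show that libraries are independent. Alternatives were other covered-T minima, adjustment, limma on log odds (pseudocount 0.5), DESeq2, other size factors and filters, summed intervals, the replicate block, other class definitions and each library left out. DESeq2 1.42.0, edgeR 4.0.16 and limma 3.58.1 ran in R 4.3.3, and matplotlib 3.10.9, numba 0.67.0, scipy 1.17.1, pandas 2.3.3 and numpy 2.4.6 in Python 3.11.15.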

Additional observations from a re-analysis of the deposited data

How the results depend on the processing

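The count of 9 chemokines with a higher T>C conversion rate was 9 with each library left out, 6 when each library had to cover at least 1000 T, where fewer genes were tested, and 10 with limma or with a one-sided p, which added *Ccl11*. The count of 0 chemokines with changed reads was 0 with each library left out and 2 with the replicate block (*Cxcl12*, log2 fold change −0.55, adjusted p = 0.00474, and *Cxcl14*, 0.64, adjusted p = 0.00502; edgeR). Under the block, 528 genes were called higher and 617 lower, with 1 residual degree of freedom for 5 libraries, and *Ccl2* was at 0.020. Deviations of same-numbered libraries from their group means correlated at 0.828 and 0.690, but only 2 numbers are shared and no label ties them to a preparation. The differently numbered labeled replicate 3 and unlabeled replicate 2 correlated at 0.553. With 2 unlabeled libraries, their deviations are mirror images, so these values are not separate from each other. With each library left out in turn, the log2 fold change ran from −0.61 to 0.51 for *Ccl2*, −0.42 to 0.050 for *Ccl7*, −0.97 to 0.38 for *Ccl9*, −0.025 to 1.49 for *Cxcl16* and −0.25 to 0.034 for *Cxcl5*, so that these 5 signs rest on single libraries. It ran from 0.26 to 0.64 for *Cxcl1* and 0.40 to 0.85 for *Cxcl14*. The class difference of 0.0132 in rate was 0.00507 with *Ccl11*, *Cx3cl1* and *Cxcl16* counted as inflammatory, 0.0108 with all distinct intervals summed, where the nested distal intervals of *Cxcl12* count repeatedly, 0.0117 with overlapping intervals counted once, 0.00707 with distal *Cxcl12*, 0.00602 with *Cxcl1* and *Cxcl5* alone as inflammatory, and 0.216 as a share of reads, another scale. With each labeled library left out it was 0.0121 to 0.0145. The distal share of *Cxcl12* exceeded the unlabeled one by 10.2 to 15.7 percentage points with each library left out, and the distal rate exceeded the proximal one by 0.0114 to 0.0137. Depth limits *Ccl11*, *Cxcl16*, *Ccl9* and *Cxcl1*, which had under 1000 covered T in at least 1 library.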

Other observations

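Deposited reads with a conversion and deposited conversions did not match in 2 places. *Cxcl16* in unlabeled replicate 2 is listed with 3 reads that carry a T>C conversion and with 0 conversions in 1337 covered T, and *Ccl11* in labeled replicate 3 with 1 such read and 0 conversions in 4 covered T.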
